A study of Mus musculus with 48 samples.

Results

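Nos2 and 8 further genes used to describe the activation state of macrophages (Mrc1, Cd163, Chil3, Retnla, Il10, Trem2, Spp1 and Gpnmb) were followed in RNA from 48 mouse sarcomas. The genes were taken by symbol from the 36854 genes of the deposited count table. None of the 9 was chosen by its measured CPM, and all 9 were tested. The label speaks of macrophages, and all 12 genes of a macrophage identity list, among them Adgre1, Csf1r, Cd68, Fcgr1, Mertk, Cd14, Lyz2 and Aif1, were present in every group. Their summed level ran from 1560.1 to 8221 counts-per-million (CPM) over the tumours. In RNA from whole tumours, fewer cells of a type and less RNA per cell cannot be told apart.

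The tumours were p53/MCA sarcomas on the 129/SvJae background, grown in the gastrocnemius, a calf muscle. Primary tumours arose in p53FL/FL mice 6 to 10 weeks old: an Adeno-Cre injection into the muscle removed the floxed p53 alleles, and 300 µg of MCA (the carcinogen 3-methylcholanthrene) was then injected. Each primary tumour is therefore an independent tumour, whereas every allograft grew from 50000 cells of 1 cell line injected into syngeneic mice, whose age the labels do not give. At a tumour volume of about 150 mm3 each mouse received 200 µg of muDX400, a mouse antibody against the T cell checkpoint receptor PD-1, or an isotype control antibody, and right after it 0 or 20 Gy of X-rays to the tumour-bearing hind limb. Tumours were taken 3 days later. The 8 groups, which are allograft or primary tumours by dose and antibody, held 4 allografts or 8 primary tumours each, and the tumours within a group are numbered here in the order of deposition.

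Macrophages take up different states with the signals around them. Interferon gamma and bacterial products induce Nos2, whose product, inducible nitric oxide synthase, turns arginine into nitric oxide and citrulline. Interleukin 4 and interleukin 13 act through the transcription factor STAT6 and in the mouse induce Mrc1, Chil3 and Retnla. Trem2, Spp1 and Gpnmb mark lipid-handling macrophages of tumours and injured tissue, and single macrophages in tumours often carry genes of several of these states together.

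The libraries held 31.8 to 54 M (mega) counted reads, with a median of 41.2 M. Trp53, the deleted gene, gave 19.9 to 62.7 CPM in all 48 tumours; these are reads over the whole gene from tumour and host cells together and check nothing of the deletion. All pairs of tumours within groups differed by far more than counting noise, with a chi-square per degree of freedom of 85.6 to 995, so no library was counted as a copy of another. The leading digit of the animal identifier was 5 in 4 of 4 untreated allografts and 4 in 8 of 8 untreated primary tumours, and 5 in 1 of 4 irradiated isotype allografts. Within the allografts Xist passed 10 CPM in 1 of 4 unirradiated tumours with isotype and in 3 of 4 irradiated ones. The summed skeletal muscle markers exceeded 20000 CPM in tumour 4 of the irradiated primary group with isotype and in tumours 4 and 8 of the irradiated primary group with anti-PD-1.

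Of the gene starts, those of Retnla and Chil3 carry the sequence pattern that STAT proteins read, and they are shown for that reason. Retnla encodes the secreted protein RELM-alpha (also called FIZZ1), and Chil3 the chitinase-like protein Ym1. Chil4 is not among the 9 genes and is shown because it is the close relative of Chil3 whose reads could be mixed with those of Chil3. The sequences are the 250 bases before the RefSeq gene start in GRCm38.p6, read 5′ to 3′ on the gene's strand, with the matched pattern in capitals.
Retnla (chr16:48842359-48842608, + strand): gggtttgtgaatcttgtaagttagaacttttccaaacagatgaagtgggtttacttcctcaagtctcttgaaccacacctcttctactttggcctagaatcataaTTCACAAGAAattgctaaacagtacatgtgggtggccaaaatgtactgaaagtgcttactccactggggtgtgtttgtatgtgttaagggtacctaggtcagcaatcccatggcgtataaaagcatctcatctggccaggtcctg
Chil3 (chr3:106167565-106167814, - strand): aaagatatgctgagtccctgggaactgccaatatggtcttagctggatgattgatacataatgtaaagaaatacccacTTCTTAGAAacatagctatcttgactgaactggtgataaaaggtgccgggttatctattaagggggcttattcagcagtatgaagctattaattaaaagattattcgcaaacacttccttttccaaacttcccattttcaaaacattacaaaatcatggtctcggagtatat
Chil4 (chr3:106219480-106219729, - strand): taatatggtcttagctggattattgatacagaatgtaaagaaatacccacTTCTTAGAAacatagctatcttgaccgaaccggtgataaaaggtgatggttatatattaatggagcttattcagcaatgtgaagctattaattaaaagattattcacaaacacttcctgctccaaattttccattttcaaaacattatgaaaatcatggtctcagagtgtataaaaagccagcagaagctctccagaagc
The patterns searched were TTCNNNNGAA, the spacing that STAT6 prefers, and TTCNNNGAA, the spacing of other STAT proteins; each reads the same on both strands, and neither overlaps the other. Retnla held the 4-base spacing, starting 145 bases before the gene start (-145), as did 5.9% of 32851 windows of the same length over all genes. Chil3 held the 3-base spacing at -172 and Chil4 at -200, as did 7.0% of windows. The Chil3 and Chil4 windows, set against each other at the best shift, were the same at 150 of 222 bases (67.6%). Mrc1, Cd163, Trem2, Gpnmb and both RefSeq starts of Spp1 held neither pattern in this window; the table had an entry for 7 of the 9 genes, with none for Nos2 and Il10. A match is a run of letters and not a measured binding site. The GENCODE start of Retnla lies inside the window shown, since the GENCODE gene model begins further upstream than the RefSeq one.

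In GRCm38 with GENCODE M21, Nos2 lies at chr11:78920787-78960254 on the + strand, Mrc1 at chr2:14229392-14332057 (+), Cd163 at chr6:124304656-124330527 (+) and Chil3 at chr3:106147554-106167564 (-). Retnla lies at chr16:48842551-48844461 (+), Il10 at chr1:131019845-131024974 (+), Trem2 at chr17:48346401-48354147 (+), Spp1 at chr5:104435118-104441050 (+) and Gpnmb at chr6:49036546-49070929 (+). All are protein-coding genes, and the counts cover their exons. The gene Mir511 lies within Mrc1 without touching an exon. The predicted gene Gm42793 overlaps an exon of Spp1 on the same strand and shared 11.6% of its 50-base windows, but reached at most 5.61 CPM in a tumour. Chil3 shared 26.9% of its 50-base windows with other genes, Chil4 (16.9%) and the predicted gene Gm6522 (13.3%), so its count is uncertain to that extent; Chil4 itself reached at most 0.0469 CPM and Gm6522 at most 0.0308 CPM.

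Per kilobase of exon, the scale on which genes can be set against each other, Spp1 was far above the others, with a median level of 414 CPM per kb over the 48 tumours. Spp1 encodes osteopontin, a secreted phosphoprotein that tumour cells and bone cells also make. Mrc1 followed at 24.0 CPM per kb, and Chil3, Gpnmb and Trem2 had medians of 9.57, 9.24 and 5.17 CPM per kb. Cd163, Nos2, Retnla and Il10 were lowest, at 1.55, 1.15, 0.948 and 0.415 CPM per kb. The spread among tumours was widest for Chil3 and Cd163 apart from Retnla: the highest Chil3 tumour was 365.7-fold above the lowest and the highest Cd163 tumour 343.3-fold, and Trem2, the most even of the 9 genes, spanned 8.68-fold. Retnla was at 0 counts in 3 tumours and under 3 counts in 8, so its low values are counting noise in part; for those tumours a level of up to 3 counts cannot be told from 0.

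Few of the 9 tested genes passed the test after irradiation. Il10, which encodes the inhibitory cytokine interleukin 10, rose in primary tumours irradiated under isotype and, in both tumour kinds, in those given radiation and antibody together when set against the untreated ones. Chil3 rose in primary tumours that received both treatments, against either unirradiated group, and Nos2 rose there against the unirradiated isotype group. The Il10 rises, and the Chil3 rise against the unirradiated anti-PD-1 group, were not called with the macrophage identity level as a covariate. Mrc1, which encodes the mannose receptor CD206, was higher and Il10 was lower in untreated primary tumours than in untreated allografts, which all grew from a single cell line. This Il10 difference was called in 3 of the 12 fits that left out a single tumour. By edgeR with all tumours and no covariate, 0 of the 9 genes passed the test as lower after a treatment; Trem2 and Retnla did so in isotype allografts, and Trem2 and Mrc1 in primary tumours, under some other settings and not under others, as given with each gene.

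The calls came from edgeR's quasi-likelihood test over all genes, at an adjusted p (Benjamini-Hochberg) under 0.05; fold changes are log2 differences with their standard error (SE). In allografts, 20 Gy against 0 Gy with isotype called 0 of the 9 genes, against 5.14% of all 17746 genes tested; 3 of the 9 had an unadjusted p under 0.05, against 18.2% of all genes, and DESeq2 called 2, against 8.62%. With anti-PD-1, 20 Gy against 0 Gy in allografts called 0 of 9, against 3.96% of all genes, with 1 at an unadjusted p under 0.05, against 19.5%, and 1 by DESeq2, against 9.38%. The combination of radiation and antibody, set against tumours that received neither (0 Gy, isotype), called 1 of 9 in allografts, against 9.66% of all genes. In primary tumours, 20 Gy against 0 Gy called 1 of 9 with isotype, against 14.5% of all 17770 genes, and 1 of 9 with anti-PD-1, against 7.92%. The combination called 3 of 9 in primary tumours, against 13.8% of all genes. In these comparisons the share of the 9 genes called was below or near the background except for the 3 of 9.

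Anti-PD-1 against isotype at the same dose called 0 of 9 genes in all 4 comparisons by edgeR, where 0% of all genes were called as well. At an unadjusted p under 0.05 there were 1 of the 9 at 0 Gy and 3 at 20 Gy in allografts, and 0 at 0 Gy and 1 at 20 Gy in primary tumours; DESeq2 called 0 of 9 in each. Over all genes, 299 and 682 in allografts (1.68% and 3.84%) and 412 and 1443 in primary tumours (2.32% and 8.12%), at 0 and 20 Gy, had an unadjusted p under 0.05. Untreated primary tumours against untreated allografts called 2 of 9, 1 in each direction, against 10% of all 17357 genes. The allograft side holds a single cell line, so tumour kind and that line cannot be told apart. The difference in response between the tumour kinds, allograft minus primary, was tested in a fit of all 48 tumours and called 0 of 9 genes each time by edgeR and by DESeq2; the exception among the other settings is given with Trem2. All-gene backgrounds there were 0.00517% (1 of 19327 genes) for dose with isotype, 0% for dose with anti-PD-1 and 0% for the combination, and 1, 2 and 0 of the 9 had an unadjusted p under 0.05, against 9.9%, 4.77% and 6.41% of all genes. The comparisons within a tumour kind share their control tumours and are given side by side, not as independent evidence. Overlap between groups was looked at for the listed genes only. The share of all genes whose groups separate as fully was not counted.

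**Figure D1:**
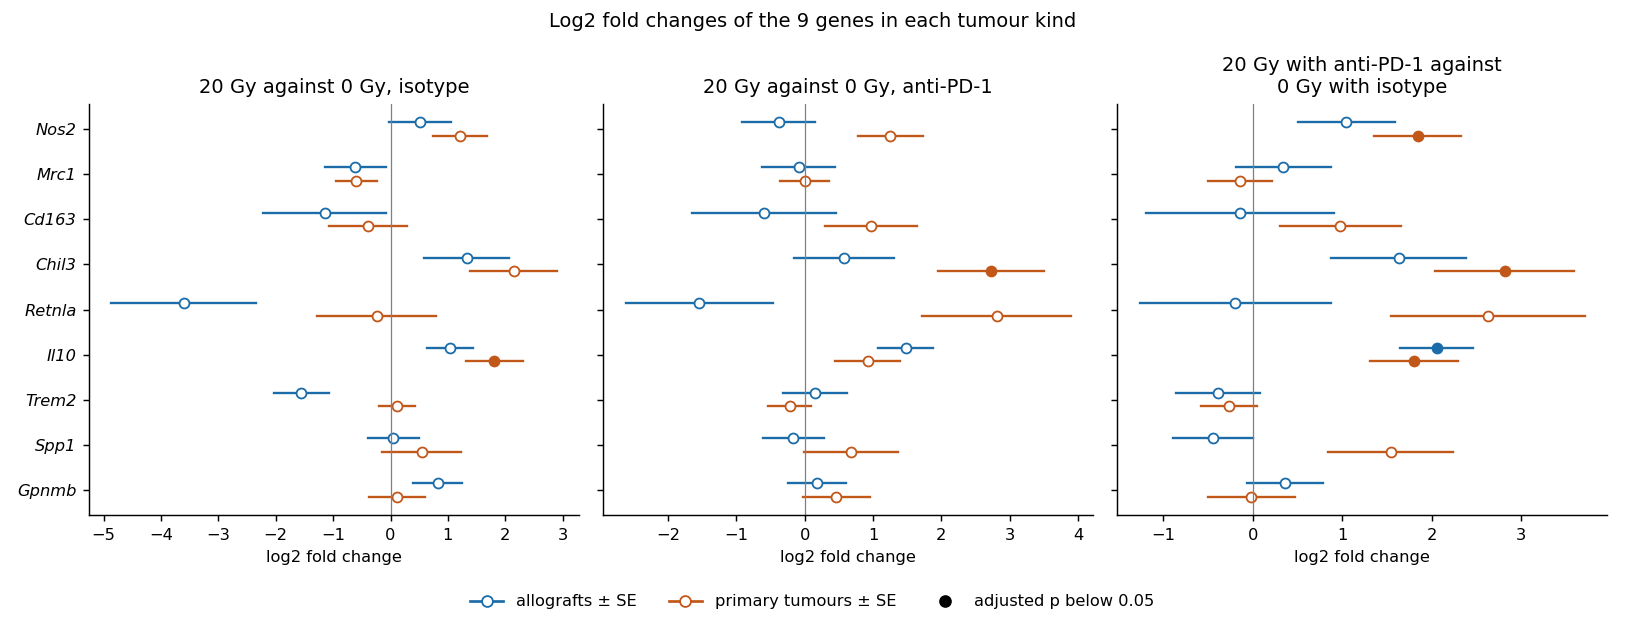
log2 fold changes of the 9 tested genes with their SE, with filled points at an adjusted p under 0.05, in the comparisons of dose and of the combination for allografts and primary tumours. Il10 lies above 0 in all 6 comparisons, and Chil3 does too, with its highest values in primary tumours (2.15, 2.73 and 2.82).

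**Figure D2:**
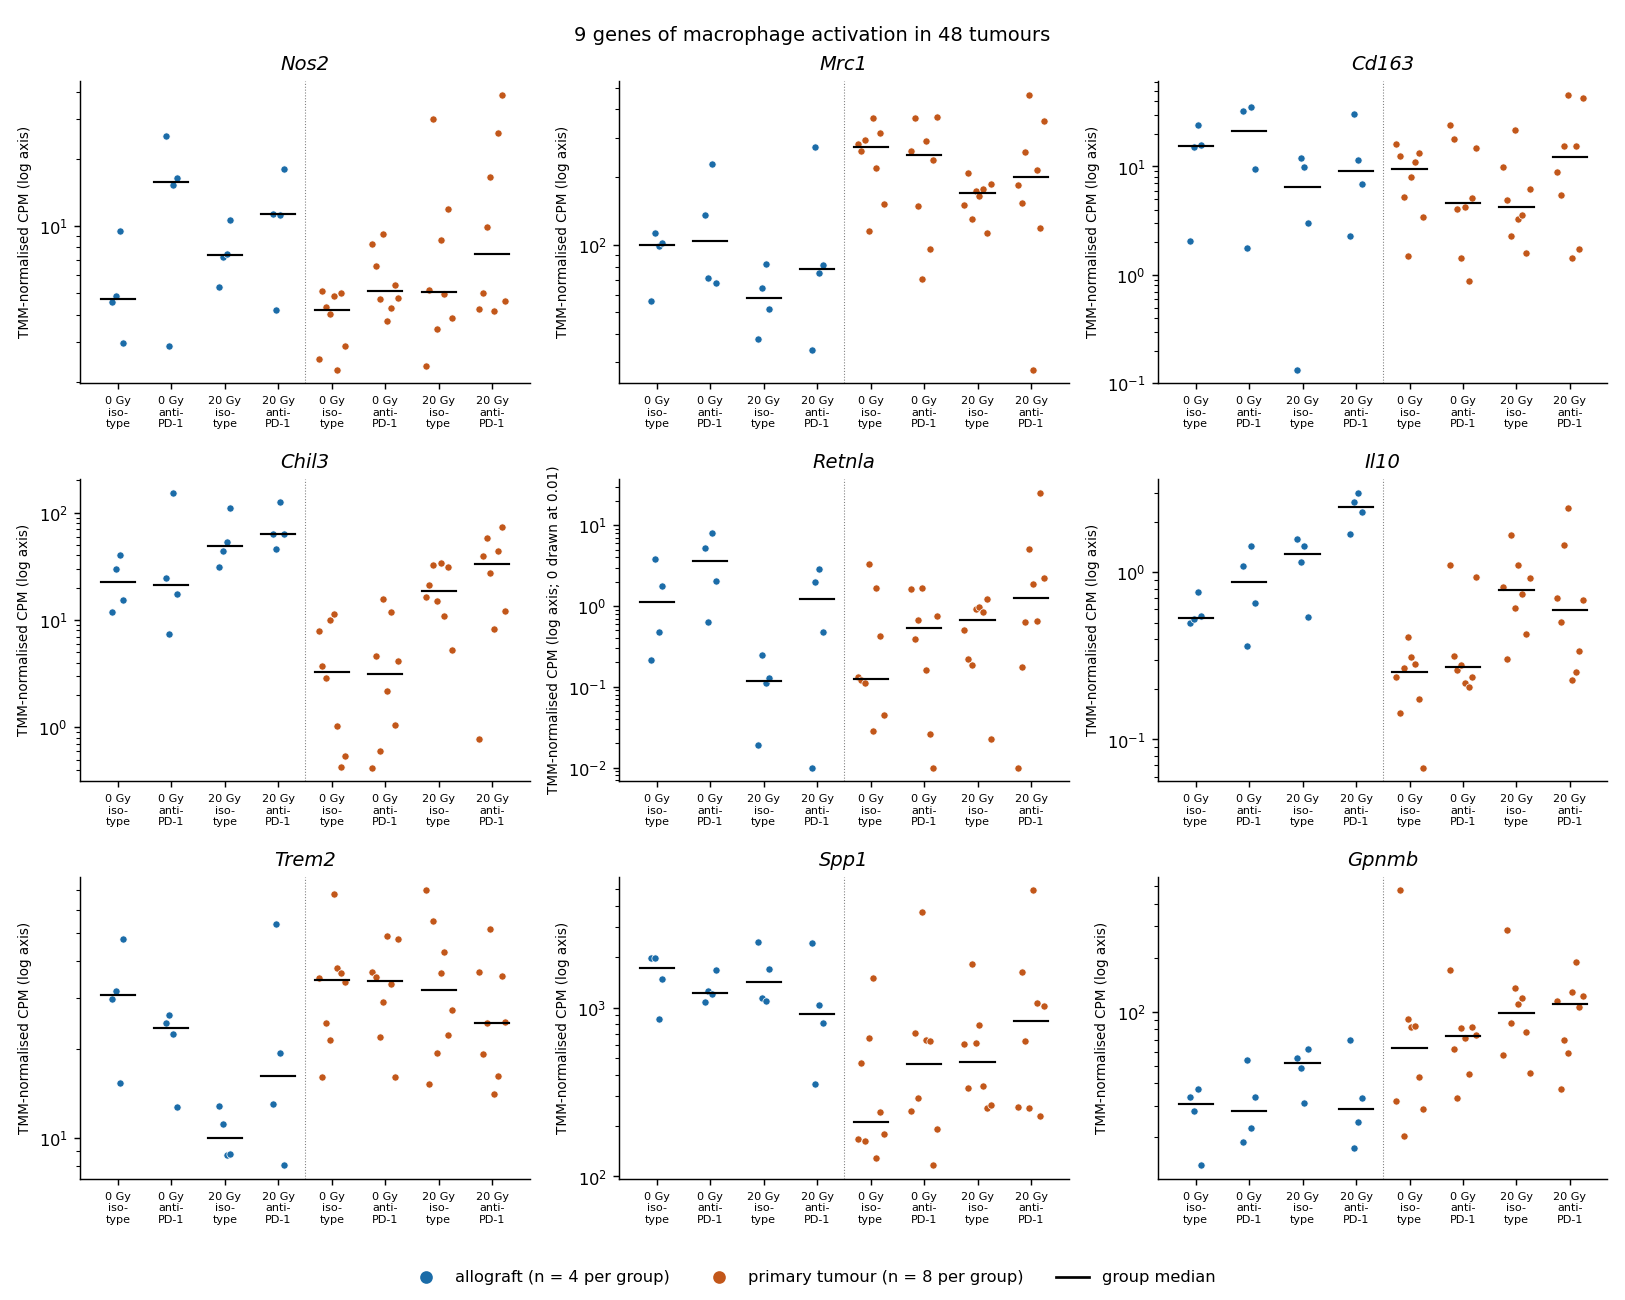
The 9 genes in CPM on log axes, 1 panel per gene and 1 point per tumour in the 8 groups, with a bar at the group median and Retnla tumours at 0 drawn at 0.01 CPM. Il10 lies under 3.01 CPM throughout with its highest median, 2.46 CPM, in the irradiated anti-PD-1 allografts, and Trem2 has its lowest median, 9.94 CPM, in the irradiated isotype allografts.

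Nos2 rose in primary tumours given the combination, by a log2 fold change of 1.84 (SE 0.48, adjusted p = 0.0102, edgeR). The unirradiated isotype tumours ran from 2.26 through 4.18 to 5.11 CPM, and those with 20 Gy and anti-PD-1 from 4.14 through 7.46 to 38.7. All 8 tumours of the combination were above the mean of the controls and 4 of 8 above the highest control. The same direction without a call by edgeR was seen for 20 Gy with isotype (1.21, adjusted p = 0.0829, 2.35 through 5.05 to 30.1 CPM) and for 20 Gy against 0 Gy with anti-PD-1 (1.25, adjusted p = 0.0996), where the controls ran from 3.76 through 5.10 to 9.24 CPM. Both were called by DESeq2, and the former with the Xist covariate too. A dose test with both antibody arms averaged, which is not a test of either arm alone, was also called (adjusted p = 0.00697). Without tumour 3 of the irradiated isotype group, 20 Gy with isotype gave 0.62 (adjusted p = 0.379).

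In allografts Nos2 was 4.58, 4.83, 9.53 and 2.97 CPM at 0 Gy with isotype and 25.3, 2.88, 15.3 and 16.3 CPM under the antibody. Irradiated allografts had 5.30, 7.26, 7.49 and 10.7 CPM with isotype and 11.4, 4.18, 11.2 and 17.9 CPM with anti-PD-1. At 0 Gy 3 of the 4 anti-PD-1 allografts thus lay above all isotype ones and 1 below all of them; the log2 difference was 1.42 with an unadjusted p of 0.0198 and an adjusted p of 1 (edgeR). The difference in dose response between tumour kinds with anti-PD-1 was -1.67 (SE 0.79, adjusted p = 0.991). Ordered by median, Nos2 was highest in the unirradiated anti-PD-1 allografts (15.8 CPM) and lowest in the unirradiated isotype primary tumours (4.18 CPM), and each group overlapped its neighbours.

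Neutrophil markers, 12 genes of which all were detected in every group, were summed in the same tumours. Mmp9, a matrix protease that osteoclasts also make, gave 59.4% of this sum over all tumours, so the other 11 markers, S100a8 and S100a9 among them, were also summed without it, a step chosen after the values were seen. Without Mmp9 they ran from 15.96 through 37.95 to 95.4 CPM in unirradiated and from 35.5 through 145.5 to 814.8 CPM in irradiated primary tumours with isotype, and from 11.6 through 36.6 to 430.1 and from 42.1 through 277 to 991 CPM in those with anti-PD-1. The irradiated isotype primary tumour with the most Nos2 (30.1 CPM), tumour 3, had the highest such sum of its group, 814.8 CPM, and the irradiated anti-PD-1 primary tumour with the most Nos2 (38.7 CPM), tumour 7, had 401.6 CPM, below the 991 CPM of tumour 6. Of the 11 neutrophil markers tested, 2 rose after 20 Gy with isotype, 3 with anti-PD-1 and 4 with the combination in primary tumours. The shares of all genes called there were 14.5%, 7.92% and 13.8%. Their part in the values of Nos2 was not tested.

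The other 23 genes of arginine, nitric oxide and polyamine metabolism are given beside the share of all genes called. In isotype allografts, where 20 Gy called 5.14% of all genes, 1 rose and 0 fell, with a median log2 fold change over the 23 genes of 0.08. That gene was Gch1, which makes the tetrahydrobiopterin cofactor of nitric oxide synthases, at 1.17 (SE 0.28, adjusted p = 0.0271). In isotype primary tumours 2 rose and 2 fell (median -0.17), where 14.5% of all genes were called. Gch1 (1.52, adjusted p = 0.00115) and the polyamine acetylase Sat1 (0.93, adjusted p = 0.0112) rose. Oat, the ornithine aminotransferase (-0.55, adjusted p = 0.0115), and Ddah2 (-0.70, adjusted p = 0.0343), which is annotated as a dimethylarginine hydrolase, fell. With anti-PD-1, 20 Gy raised 1 gene in each tumour kind, Sat1 in allografts (1.28, adjusted p = 0.0274) and Gch1 in primary tumours (0.97, adjusted p = 0.0451). Of all genes, 3.96% and 7.92% were called there. The combination raised 2 and lowered 1 in allografts, where 9.66% of all genes were called. Untreated primary tumours had 3 of the 23 genes higher and 2 lower than untreated allografts, where 10% of all genes were called. The cationic amino acid transporters Slc7a1 (1.52) and Slc7a3 (3.90) and Oat (0.77) were higher. The ornithine decarboxylase gene Odc1 (-1.26, adjusted p = 0.00433) and the spermine oxidase gene Smox (-1.19, adjusted p = 0.000928) were lower.

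Chil3 rose in primary tumours after 20 Gy with anti-PD-1. The unirradiated anti-PD-1 tumours ran from 0.421 through 3.15 to 15.9 CPM and the irradiated ones from 0.785 through 33.4 to 74.1, a log2 fold change of 2.73 (SE 0.77, adjusted p = 0.0262, edgeR) with 5 of 8 above the highest control. This call ended with the macrophage identity covariate in either form given below, with only the groups compared (highest adjusted p of 0.0726 over these) and when any of 4 single tumours was left out (unirradiated anti-PD-1 tumours 5 and 7, irradiated anti-PD-1 tumours 3 and 7), with adjusted p from 0.0503 to 0.0538. Against the unirradiated isotype tumours, which ran from 0.427 through 3.30 to 11.5 CPM, the combination gave 2.82 (SE 0.77, adjusted p = 0.0141) with 6 of 8 above the highest control. The irradiated isotype tumours ran from 5.27 through 18.7 to 33.7 CPM, with 6 of 8 above the highest control, at 2.15 (SE 0.75, adjusted p = 0.0526); this was called without unirradiated tumour 4 or 5 or irradiated tumour 8 (adjusted p from 0.0343 to 0.0389) and in 7 of 12 other settings, DESeq2 among them.

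In allografts Chil3 was 11.8, 30.0, 40.2 and 15.4 CPM at 0 Gy with isotype and 30.9, 44.1, 53.7 and 111.6 CPM at 20 Gy (1.33, adjusted p = 0.381). With anti-PD-1 it was 24.8, 7.42, 154 and 17.6 CPM at 0 Gy and 62.8, 46.3, 126.3 and 63.5 CPM at 20 Gy (0.58, adjusted p = 0.717); without the unirradiated tumour at 154 CPM this was 2.21 and called (adjusted p = 0.0425). The 4 tumours of the combination were all above the 4 untreated ones, with a log2 fold change of 1.63 and an adjusted p of 0.196. With the full macrophage identity covariate given below, dose with isotype, dose with anti-PD-1 and the combination gave 0.15, -0.48 and -0.05. Those fits called 427, 1 and 1 of all 17746 genes. Untreated primary tumours were all below the untreated allografts, at -2.38 (SE 0.75, adjusted p = 0.0617), and without primary tumour 4 or 5 the call was made (adjusted p = 0.0436 and 0.0409), as it was by DESeq2 (adjusted p = 0.0102).

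Chil3 is also carried by Ly6C-high monocytes. The 7 other genes of a monocyte marker list, among them Ly6c2, Ccr2, Plac8, Vcan, F10 and Ms4a4c, summed to 565 to 761 CPM at 0 Gy and 1282 to 2081 at 20 Gy in isotype allografts, and to 309.9 to 889 and 813 to 2556 CPM in isotype primary tumours. In primary tumours with anti-PD-1 the sums overlapped, at 292 to 1180 CPM at 0 Gy and 585 to 1817 CPM at 20 Gy. With Chil3 counted in, 6 of 8 monocyte markers rose after 20 Gy in isotype primary tumours and 3 of 8 in isotype allografts. Of all genes, 14.5% and 5.14% were called there. The allograft with the most Chil3 (154 CPM), tumour 3 of the unirradiated anti-PD-1 group, had the highest monocyte sum (1204 CPM) and neutrophil sum (1038 CPM without Mmp9) of its group. The part of these cells in Chil3 was not tested.

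Retnla was low in most tumours and was called in none of the treatment comparisons by edgeR with all tumours; DESeq2 called it in 3 of them. In isotype allografts it was 0.215, 3.82, 0.471 and 1.75 CPM at 0 Gy and 0.0191, 0.245, 0.110 and 0.129 CPM at 20 Gy, the latter from 1, 10, 4 and 5 reads. The log2 fold change was -3.60 (SE 1.26, adjusted p = 0.125 by edgeR and 0.0155 by DESeq2), and the groups overlapped by 1 tumour. It was -1.44 with the identifier digit as a covariate (adjusted p = 0.673) and -2.66 without untreated tumour 2 (adjusted p = 0.359). With anti-PD-1 it was 5.26, 0.635, 8.11 and 2.03 CPM at 0 Gy and 0, 1.98, 2.91 and 0.472 at 20 Gy. In primary tumours the 4 groups had medians of 0.126, 0.531, 0.677 and 1.27 CPM (0 Gy isotype, 0 Gy anti-PD-1, 20 Gy isotype, 20 Gy anti-PD-1). The highest value, 25.4 CPM, was in tumour 7 of the irradiated anti-PD-1 group, and the unirradiated isotype group reached 3.30 CPM. The combination in primary tumours gave 2.63 (adjusted p = 0.0991 by edgeR), called without untreated tumour 4 (3.63, adjusted p = 0.0337) and by DESeq2 (adjusted p = 0.0375). There, 20 Gy against 0 Gy with anti-PD-1 gave 2.81 (adjusted p = 0.111 by edgeR and 0.0369 by DESeq2). Both values rest largely on tumour 7 of the irradiated anti-PD-1 group: without it they were 1.08 and 1.25 (adjusted p = 0.502 and 0.489, edgeR).

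Retnla is also made in fat tissue. The 6 adipocyte markers (Adipoq, Cfd, Plin1, Cidec, Lep and Retn) summed to 0.0715 to 140.7 CPM in isotype allografts at 0 Gy and to 0.129 to 4.40 CPM at 20 Gy, where all 6 averaged under 1 CPM. With anti-PD-1 the sums were 10.7 to 92.8 CPM at 0 Gy and 1.69 to 124.96 CPM at 20 Gy. All 5 of the adipocyte markers tested were lower after 20 Gy in isotype allografts at an unadjusted p under 0.05, with a median log2 fold change of -4.20, and 0 passed the adjusted threshold. Of all genes, 18.2% had an unadjusted p under 0.05 there. The primary tumour with the most Retnla had an adipocyte sum of 30.5 CPM in a group that ran from 0.0756 to 91.7 CPM. The part of fat tissue in Retnla was not tested.

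**Figure D3:**
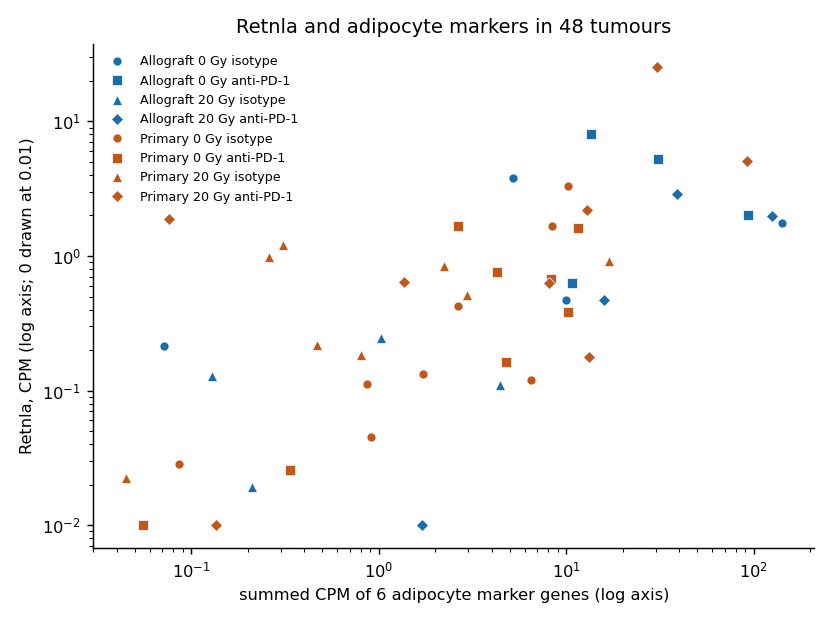
Retnla in CPM (vertical, log axis) against the summed CPM of 6 adipocyte markers (horizontal, log axis), 1 point per tumour, with the 8 groups by colour and symbol. The irradiated isotype allografts lie in the lower left, at or under 0.245 CPM of Retnla with adipocyte sums up to 4.40 CPM.

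Il10 was the gene called most often, though at very low levels. In isotype allografts the 4 tumours had 0.501, 0.524, 0.763 and 0.545 CPM at 0 Gy and 1.58, 1.15, 1.43 and 0.542 CPM at 20 Gy, and with anti-PD-1 they had 1.10, 0.363, 1.43 and 0.653 CPM at 0 Gy and 1.69, 2.64, 3.00 and 2.28 CPM at 20 Gy. All 4 tumours of the combination were above both unirradiated groups. Against the untreated group the log2 fold change was 2.06 (SE 0.41, adjusted p = 0.00601, edgeR), and against unirradiated tumours with anti-PD-1 it was 1.48 (SE 0.40, adjusted p = 0.0532), which passed without unirradiated tumour 3 or irradiated tumour 1 (adjusted p = 0.028 and 0.048). It was also called by DESeq2 and with the Xist or identifier covariate. With isotype, 20 Gy gave 1.04 (adjusted p = 0.178), with 3 of 4 tumours above the highest control. A dose test with both antibody arms averaged, which is not a test of either arm alone, was called (adjusted p = 0.00786). At 20 Gy the anti-PD-1 allografts were all above the isotype ones, at 1.02 with an unadjusted p of 0.0213 and an adjusted p of 0.682.

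In primary tumours Il10 ran from 0.0679 through 0.252 to 0.413 CPM at 0 Gy and from 0.302 through 0.784 to 1.66 CPM at 20 Gy with isotype, with 7 of 8 irradiated tumours above the highest control. That was a log2 fold change of 1.81 (SE 0.49, adjusted p = 0.0121, edgeR). With anti-PD-1 it ran from 0.207 through 0.270 to 1.10 CPM at 0 Gy and from 0.227 through 0.595 to 2.42 CPM at 20 Gy, a difference of 0.92 (adjusted p = 0.237). With the macrophage identity covariate this was 0.07 (adjusted p = 0.942), and 0.18 (adjusted p = 0.865) without Lyz2 and Mpeg1 in it. The dose test with both antibody arms averaged, which includes the isotype arm, was called (1.37, adjusted p = 0.00349). The combination gave 1.81 (SE 0.49, adjusted p = 0.0133); without the muscle-rich tumours, or without tumour 4 of the irradiated anti-PD-1 group alone, it gave 1.32 (adjusted p = 0.0958 and 0.0612), which ends the call. All 8 untreated primary tumours had less Il10 than all 4 untreated allografts, at -1.29 (SE 0.38, adjusted p = 0.0481). That last call rests on small margins: it ended in 9 of the 12 fits that left out a single tumour, among them each of the 4 allografts and primary tumours 1, 2, 3, 6 and 7 (adjusted p from 0.0546 to 0.127), and in 6 of 8 other settings (highest adjusted p of 0.115). All 4 untreated allografts have an animal identifier that begins with 5 and all 8 untreated primary tumours one that begins with 4, so this digit and the tumour kind cannot be told apart.

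Macrophage identity markers were summed in the same tumours. Lyz2 gave 39.4% and Mpeg1 18.6% of this sum over all tumours, so tests that used it as a covariate were also run on the sum of the other 10 genes, a step chosen after the values were seen. The full summed level was 2415 to 2919 CPM at 0 Gy and 3576 to 5019.5 CPM at 20 Gy in isotype allografts, and 4000.5 to 8221 CPM with the combination. In isotype primary tumours it was 1774 to 3861 CPM at 0 Gy and 2686 to 5958 CPM at 20 Gy, and with the combination it was 1560.1 to 8007 CPM, where tumours 5 and 6 (1560.1 and 2194 CPM) lay below the untreated median of 2426 CPM. Of the 12 markers, 4 rose after 20 Gy with isotype in allografts and 8 in primary tumours, and with the combination 6 rose in each, with 1 lower in primary tumours. The shares of all genes called were 5.14% and 14.5% with isotype and 9.66% and 13.8% with the combination. Csf1r, the receptor that macrophages need for growth, averaged 432.1 CPM at 0 Gy and 327.5 CPM at 20 Gy in isotype primary tumours (-0.37, adjusted p = 0.38, edgeR). With the full summed level as a covariate, Il10 was no longer called for the combination in allografts (1.18, adjusted p = 0.412), for 20 Gy with isotype in primary tumours (0.70, adjusted p = 0.335) or for the combination there (0.64, adjusted p = 0.323). The covariate lowered the number of genes called over the whole table too, in these 3 comparisons from 1714 to 1, from 2575 to 920 and from 2446 to 1428. Il10 was also not called between the untreated tumour kinds (-1.23, adjusted p = 0.0746), nor Chil3 for 20 Gy with anti-PD-1 in primary tumours (2.45, adjusted p = 0.0582). Nos2 and Chil3 were called for the combination in primary tumours, at 1.68 (adjusted p = 0.0393) and 2.48 (adjusted p = 0.0462). With the 10-gene sum as the covariate, Il10 was again not called in these 4 comparisons, at 1.21 (adjusted p = 0.874), 1.13 (adjusted p = 0.0565), 0.88 (adjusted p = 0.158) and -1.46 (adjusted p = 0.0654), nor was Chil3 for 20 Gy with anti-PD-1 in primary tumours (2.49, adjusted p = 0.0726). Nos2 and Chil3 were called for the combination there too, at 1.72 (adjusted p = 0.0308) and 2.62 (adjusted p = 0.0368).

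Mrc1, the mannose receptor, differed between the untreated tumour kinds and was not called in any treatment comparison by edgeR without a covariate or by DESeq2. Untreated primary tumours ran from 115.2 through 272 to 366 CPM and the 4 untreated allografts had 56.2, 112.6, 99.1 and 101.5 CPM. All 8 primary tumours were above all 4 allografts, at a log2 difference of 1.43 (SE 0.31, adjusted p = 0.0118, edgeR), which missed the threshold with all 48 tumours in 1 fit (adjusted p = 0.0507). As for Il10, the leading digit of the animal identifier separates these groups as fully as the tumour kind does. After 20 Gy with isotype the allografts had 38.1, 64.4, 82.4 and 51.8 CPM (-0.61, adjusted p = 0.611), and the primary tumours ran from 112.8 through 169.7 to 208 CPM (-0.60, adjusted p = 0.273). With anti-PD-1, allografts had 136.3, 71.0, 228 and 68.0 CPM at 0 Gy and 33.9, 271, 74.7 and 81.7 CPM at 20 Gy, and primary tumours ran from 70.3 through 251 to 371 CPM and from 27.8 through 199.9 to 465 CPM. These groups overlapped widely.

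Mrc1 was also set against the macrophage identity level, of which Lyz2 and Mpeg1 gave the larger part. Per 10000 CPM of the 12 identity markers it ran from 222 through 363 to 466.1 CPM at 0 Gy and from 75.9 through 146 to 182 CPM at 20 Gy in isotype allografts. In isotype primary tumours the same ratio ran from 472 through 1055 to 1652 at 0 Gy and from 252 through 392 to 683 at 20 Gy. These ratios are descriptions. With the full identity sum as a covariate, Mrc1 was not called for dose with isotype (-1.52, adjusted p = 0.0963, in allografts and -1.07, adjusted p = 0.0878, in primary tumours) or with anti-PD-1 (-1.40, adjusted p = 0.618, and -0.40, adjusted p = 0.573). With the 10-gene sum without Lyz2 and Mpeg1 it was called lower for dose with isotype in primary tumours (-0.997, adjusted p = 0.0333), where 8.63% of all genes were called, and not in allografts (-1.66, adjusted p = 0.34), where 0% were. The difference between the untreated tumour kinds was called with either sum as a covariate (1.47, adjusted p = 0.0134, and 1.16, adjusted p = 0.0449).

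Cd163, the scavenger receptor for haemoglobin bound to haptoglobin, passed no test. It was 2.05, 15.1, 23.9 and 15.9 CPM in untreated allografts, and 0.134, 12.04, 9.96 and 3.02 CPM after 20 Gy with isotype (-1.15, adjusted p = 0.642). With anti-PD-1 it was 32.8, 1.78, 35.3 and 9.49 CPM at 0 Gy and 2.29, 30.3, 11.4 and 6.95 CPM at 20 Gy. In the primary groups it ran from 0.881 to 23.9 CPM without irradiation and from 1.44 to 45.8 CPM with it, and the medians with isotype were 9.48 CPM at 0 Gy and 4.26 CPM at 20 Gy. Each group's range was wide, and the groups overlapped.

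Trem2, a lipid receptor of macrophages that signals through the adaptor encoded by Tyrobp, was low in irradiated isotype allografts. They had 12.9, 11.1, 8.70 and 8.78 CPM against 29.7, 31.6, 15.4 and 47.7 CPM in untreated allografts, with no overlap. How many of all genes separate as fully was not counted. The log2 fold change was -1.56 (SE 0.48, adjusted p = 0.0761), so it missed the threshold over all genes. Without untreated tumour 3 the call was made (-1.78, adjusted p = 0.0364), as it was with the macrophage identity level as a covariate (-2.38, adjusted p = 0.0358), with only the groups compared and by DESeq2 (lowest adjusted p of 0.0156). It was not called with the identity sum without Lyz2 and Mpeg1 as the covariate (-2.53, adjusted p = 0.203), a fit that called 0% of all genes, with the antibody arms averaged (-0.70, adjusted p = 0.193), or in 6 further settings, of which the identifier covariate gave the highest adjusted p, 0.312. With anti-PD-1, the allografts had 24.5, 26.3, 22.7 and 12.7 CPM at 0 Gy and 13.0, 53.6, 19.5 and 8.05 CPM at 20 Gy (0.16, adjusted p = 0.893); the tumour at 53.6 CPM also had the highest macrophage identity sum of all, 8221 CPM.

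Among primary tumours the 4 groups overlapped in Trem2. With isotype it ran from 16.1 through 34.5 to 67.9 CPM at 0 Gy and from 15.2 through 31.8 to 69.8 CPM at 20 Gy (0.11, adjusted p = 0.85), and with anti-PD-1 from 16.2 through 34.4 to 48.9 CPM and from 14.1 through 24.7 to 51.5 CPM. The difference in dose response between tumour kinds with isotype was -1.67 (SE 0.58), with an unadjusted p of 0.00604 and an adjusted p of 0.466; with the identity sum without Lyz2 and Mpeg1 as a covariate it was -2.35 and called (adjusted p = 0.0353), where 0.0466% of all genes were called. Per 10000 CPM of macrophage identity markers, Trem2 ran from 52.6 through 124.3 to 182 CPM in untreated allografts and from 19.0 through 22.4 to 31.1 CPM after 20 Gy with isotype. In primary tumours it ran from 80.2 through 143.3 to 176 CPM at 0 Gy and from 49.8 through 83.4 to 117.2 CPM at 20 Gy. With the full identity sum as a covariate, Trem2 was called lower after 20 Gy in primary tumours too, at -0.74 with isotype (adjusted p = 0.0405), -0.68 with anti-PD-1 (adjusted p = 0.0342) and -0.85 for the combination (adjusted p = 0.00731). These 3 calls rest on the choice of identity genes: without Lyz2 and Mpeg1 in the sum they ended, at -0.32 (adjusted p = 0.463), -0.58 (adjusted p = 0.164) and -0.64 (adjusted p = 0.0873).

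**Figure D4:**
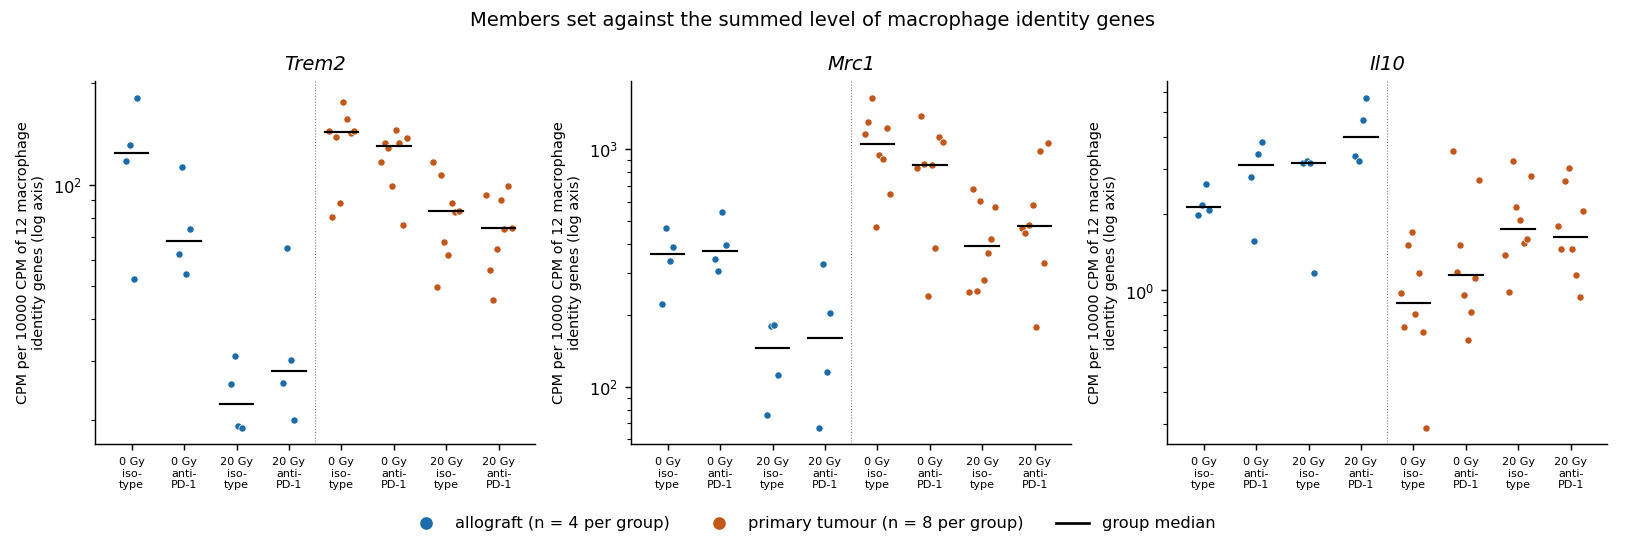
Trem2, Mrc1 and Il10 in CPM per 10000 CPM of the 12 summed macrophage identity markers, on log axes, 1 point per tumour in the 8 groups with a bar at the median. The Trem2 median goes from 124.3 to 22.4 with dose in isotype allografts and from 143.3 to 83.4 in isotype primary tumours, and the Il10 median goes from 0.895 to 1.74 in the latter.

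Spp1 had higher medians in the 4 allograft groups than in the 4 primary groups and was very uneven among tumours. Untreated allografts ran from 858 through 1715 to 1975 CPM and untreated primary tumours from 129 through 209.9 to 1505 CPM, with 7 of 8 primary tumours under all allografts. The log2 difference was -1.85 (SE 0.60, adjusted p = 0.0696), and it was called with the macrophage identity level as a covariate (-1.95, adjusted p = 0.0282), though not without Lyz2 and Mpeg1 in that level (-2.22, adjusted p = 0.104), with the muscle covariate, by DESeq2 and without primary tumour 5 (-2.46, adjusted p = 0.0062). Irradiation with isotype left allografts at 1087 through 1419 to 2432 CPM (0.05, adjusted p = 0.978) and primary tumours at 253 through 477 to 1815 CPM (0.54, adjusted p = 0.631). The irradiated anti-PD-1 allografts were the least even of the allograft groups, at 2399.99, 354, 1028 and 811 CPM, and overlapped all primary groups. With the combination primary tumours ran from 228 through 829.8 to 4935 CPM (1.54, SE 0.70, adjusted p = 0.138), and without untreated tumour 5 the combination was called (2.16, adjusted p = 0.0467), whereas without irradiated tumour 5 it gave 0.73 (adjusted p = 0.469).

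Osteoclasts make Spp1 as well as macrophages do. The 7 osteoclast markers (Acp5, Ctsk, Ocstamp, Dcstamp, Calcr, Oscar and Atp6v0d2) summed to 139.5 to 248 CPM in untreated isotype allografts and to 345 to 981 CPM after 20 Gy. In primary tumours with isotype the sums were 133.2 to 2486 CPM at 0 Gy and 154 to 755 CPM at 20 Gy, and with anti-PD-1 they were 145 to 451 CPM and 154 to 2652 CPM. The tumour with the most Spp1, tumour 5 of the irradiated anti-PD-1 primary group, had the highest osteoclast sum of all, 2652 CPM. Its neutrophil markers summed to 2361 CPM, of which Mmp9, which osteoclasts also make, gave 2032 CPM. The next highest in Spp1 (3659 CPM), tumour 4 of the unirradiated anti-PD-1 primary group, had an osteoclast sum of 289 CPM. In the unirradiated isotype primary group the highest osteoclast sum, 2486 CPM, was in tumour 1. The most Spp1 there, 1505 CPM, was in tumour 5, whose osteoclast sum was 156 CPM. The part of these cells in Spp1 was not tested.

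Gpnmb, a membrane glycoprotein of lysosome-rich macrophages, osteoclasts and pigment cells, was called in none of the comparisons by edgeR within its own set of tumours. Untreated allografts ran from 13.98 through 30.8 to 37.2 CPM and untreated primary tumours from 20.4 through 62.6 to 473 CPM (1.90, SE 0.81, adjusted p = 0.155); DESeq2 and the fit of all 48 tumours called this difference (lowest adjusted p of 0.0357), and without the primary tumour at 473 CPM it was 0.94 (adjusted p = 0.226). After 20 Gy with isotype, allografts ran from 30.9 through 51.7 to 61.7 CPM (0.82, adjusted p = 0.335) and primary tumours from 45.5 through 98.01 to 284 CPM (0.11, adjusted p = 0.9). With anti-PD-1 allografts ran from 18.8 through 28.0 to 54.04 CPM at 0 Gy and from 17.4 through 28.8 to 69.3 CPM at 20 Gy, and primary tumours from 33.3 through 72.9 to 171 CPM and from 36.9 through 110.4 to 189.97 CPM. Melanocyte markers (Pmel, Mlana, Dct, Tyr and Tyrp1) summed to at most 3.01 CPM in any tumour.

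Genes of the interferon gamma and lipopolysaccharide response, the classical activation to which Nos2 belongs, passed the test upward in numbers that ran from 4 to 17 of 21 over the dose and combination comparisons. The list held 22 genes besides Nos2, of which 21 were tested in the treatment comparisons. With isotype, 7 of 21 rose in allografts and 15 of 21 in primary tumours after 20 Gy, 0 fell in either, and the median log2 fold changes were 1.11 and 1.83, against -0.0019 and -0.0201 over all genes. With anti-PD-1, 20 Gy raised 4 of 21 in allografts (median 1.16) and 17 of 21 in primary tumours (median 1.40). The combination raised 15 of 21 in allografts (1.54) and 17 of 21 in primary tumours (1.77). In the same order, 5.14%, 3.96% and 9.66% of all genes were called in allografts and 14.5%, 7.92% and 13.8% in primary tumours. In isotype allografts Cxcl10, a chemokine for activated T cells, rose from 157 to 764 CPM in the mean (2.30, SE 0.49, adjusted p = 0.0145), with Irf5 (1.32, adjusted p = 0.00416) and Il27 (1.70, adjusted p = 0.01). In isotype primary tumours Acod1, which makes itaconate in activated myeloid cells, rose from 2.07 to 32.6 CPM (3.99, SE 0.64, adjusted p = 0.00013), with Tnf (2.35) and the costimulator Cd80 (2.21). Against 10% of all genes called, untreated primary tumours had 8 of 20 genes of this list lower than untreated allografts and 0 higher (median -1.10). Among the lower ones were Ido1 (-5.12), the cyclooxygenase gene Ptgs2 (-2.44) and Irf1 (-1.23).

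Of the genes of the interleukin 4 and interleukin 13 response, 0 to 10 of 21 rose. Over all genes, dose with isotype, dose with anti-PD-1 and the combination called 5.14%, 3.96% and 9.66% in allografts. They called 14.5%, 7.92% and 13.8% in primary tumours. Of 21 tested genes besides the members, 0 rose and 0 fell after 20 Gy in isotype allografts by edgeR, with 4 at an unadjusted p under 0.05 and a median of 0.60; with anti-PD-1 it was 0 as well, with 2 unadjusted and a median of 0.16. The combination raised 2 of 21 in allografts, the chemokine Ccl22 (1.87, adjusted p = 0.0461) and the inhibitory receptor Cd200r1 (1.61, adjusted p = 0.0251). In primary tumours 5 of 21 rose after 20 Gy with isotype (median 0.87), 5 with anti-PD-1 (0.71) and 10 with the combination (1.18), and 0 fell. They included Pdcd1lg2, which encodes the PD-1 ligand PD-L2 (2.26 with isotype, adjusted p = 0.0104), Ccl22 (1.82) and Cd200r1 (1.503), and for the combination the lipoxygenase Alox15 (4.42, SE 0.92, adjusted p = 0.00184). Untreated primary tumours were lower in Alox15 (-4.27) and Pdcd1lg2 (-2.18) than untreated allografts.

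The lists around Trem2 and around Mrc1 and Cd163 are set beside the share of all genes called. In allografts that share was 5.14% for dose with isotype, 3.96% for dose with anti-PD-1 and 9.66% for the combination. In primary tumours it was 14.5%, 7.92% and 13.8%. Of 20 genes of the TREM2 lipid-associated programme, 5 rose in allografts after 20 Gy with isotype (median 0.44), 5 with anti-PD-1 (0.64) and 8 with the combination (0.85), and 6 rose in each of the 3 primary comparisons (0.48, 0.48 and 0.62); 0 fell. Itgax, the integrin CD11c, rose by 1.83 in isotype allografts and 2.03 in isotype primary tumours, and Plin2, a lipid droplet protein, by 0.83 and 0.84. Trem2 itself did not rise in any of these comparisons. Of 20 scavenger genes of resident-type macrophages, 0 rose in either dose comparison of the allografts by edgeR (5 at an unadjusted p under 0.05 in each), 5 rose with the combination there, and 4, 1 and 3 rose in primary tumours with dose and isotype, dose and anti-PD-1, and the combination. Untreated primary tumours had more Lyve1 (3.13, adjusted p = 0.00868) and Stab1 (1.18) and less Timd4 (-2.08) and Marco (-2.01) than untreated allografts, beside the higher Mrc1.

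The signals themselves were barely measurable in places. Il4 ran from 0 to 1.14 CPM and Il13 from 0 to 0.228 CPM over the 48 tumours, and Ifng from 0.0226 to 5.22 CPM. Ifng was lower in untreated primary tumours than in untreated allografts (-2.86, SE 0.70, adjusted p = 0.0227), and Csf1 (1.01) and Il34 (1.56), the ligands of the macrophage growth factor receptor, were higher. Csf2, which encodes the growth factor GM-CSF, rose after 20 Gy with isotype from 0.0921 to 0.496 CPM in allografts (2.43, adjusted p = 0.0195) and from 0.119 to 1.22 CPM in primary tumours (3.36, adjusted p = 0.0021). Il10ra, the receptor chain for interleukin 10, rose in isotype allografts (1.35, adjusted p = 0.00463). In all, 3 of 22 genes of signals, receptors and transcription factors rose with 20 Gy and isotype in allografts, 2 with anti-PD-1 and 5 with the combination. Of all genes, 5.14%, 3.96% and 9.66% were called there. In primary tumours 5, 8 and 12 of 21 rose, against 14.5%, 7.92% and 13.8% of all genes. Anti-PD-1 against isotype at the same dose called 0 genes in each of these lists by edgeR, as over all genes, with 0 to 6 genes of a list at an unadjusted p under 0.05.

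The genes most like the members in their pattern over the 48 tumours were ranked by the rank correlation of log2 CPM among the 14401 genes that averaged 1 CPM or more; the tumours share treatment groups, and the values are descriptions. For Nos2 they were Sh2d3c (0.72), Tarm1 (0.709), Ltb4r1 (0.684), Piwil2 (0.676) and Stx11 (0.675). Chil3 had the closest neighbours, Trem3 (0.899), Gm1966 (0.896), Ifitm6 (0.881), Acod1 (0.881) and Nfe2 (0.877). Spp1 was most like Esd (0.815), Fam110c (0.799), Aig1 (0.788), Gsto1 (0.784) and Gsto2 (0.763), and Trem2 most like Gpr34 (0.778), Selenop (0.73), D3Ertd751e (0.706), Aktip (0.667) and Zfand1 (0.655).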

How the data were processed

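RNA-seq libraries were made from whole tumours with a stranded poly(A) kit, from RNA with an integrity number above 7, per the labels' protocols. The authors deposited whole-number read counts per gene for all 48 tumours; per the submitters' processing notes, reads were trimmed with Trimmomatic 0.36, aligned with STAR to mm10 and counted with HTSeq. The annotation and the strand setting of the counting are not given in the sources used here, so overlapping genes on either strand may share reads. Every column of the deposited counts was matched to a tumour by its title, and 0 columns were left without a sample. GENCODE M21 named 36796 of the 36854 genes.

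From the counts, TMM-scaled CPM were computed, and genes passing filterByExpr were tested with edgeR 4.0.16 (limma 3.58.1, R 4.3.3) by its quasi-likelihood F test, with Benjamini-Hochberg adjustment over all genes tested and a threshold of 0.05. The 16 allografts and the 32 primary tumours were fitted apart, the untreated groups alone for the comparison of tumour kinds (12 tumours), and all 48 for differences in response. The SE was derived from the log2 fold change and the F value. DESeq2 1.42.0, other size factors, no expression filter, covariates (macrophage identity, skeletal muscle, Xist above 10 CPM, the leading identifier digit), other sets of tumours and leaving out single tumours were alternatives; leaving out the muscle-rich tumours and a macrophage identity level without Lyz2 and Mpeg1 were added after seeing the data. The code was tested on simulated data. The labels list the tumours as separate samples, so p-values measure the spread between these tumours. The allografts share a single cell line, so p-values do not cover the spread among lines.

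The members, the gene lists and the tests were chosen with earlier results of these data known. Named were the members, up to 3 called genes per list, comparison and direction with the smallest p, and the 5 genes most like Nos2, Chil3, Spp1 and Trem2. 1 member and some other genes that this rule allows are not reported here. Promoters came from RefSeq (GRCm38.p6). Figures were drawn with matplotlib 3.10.9 in Python 3.11.15.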

Additional observations from a re-analysis of the deposited data

Results flagged for a closer look

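Of 72 combinations of gene and group, 13 held a tumour that stood apart from its group by Dixon's ratio on CPM. Each was the highest of its group. The threshold is meant to give 1 in 20 by chance for normally distributed values. That rate was not checked for CPM, which are uneven, so no excess over chance is read from the count. Tumour 3 of the irradiated isotype primary group stood apart in Nos2 (30.1 CPM) and Spp1 (1815 CPM). Tumour 5 of the unirradiated isotype primary group stood apart in Trem2 (67.9 CPM) and Spp1 (1505 CPM). Further Spp1 values were 3659 CPM in tumour 4 of the unirradiated and 4935 CPM in tumour 5 of the irradiated anti-PD-1 primary groups. Gpnmb stood apart at 473 CPM (tumour 2, unirradiated isotype primary), 171 CPM (tumour 1, unirradiated anti-PD-1 primary) and 284 CPM (tumour 2, irradiated isotype primary). The others were Cd163 in tumour 4 of the irradiated isotype primary group (21.6 CPM), Retnla in tumour 7 of the irradiated anti-PD-1 primary group (25.4 CPM), Chil3 in tumour 3 of the unirradiated anti-PD-1 allografts (154 CPM) and Il10 in tumour 3 of the untreated allografts (0.763 CPM).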

How the results depend on the processing

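The number of the 9 genes called was 0 for 20 Gy with isotype in allografts and became 1 with the macrophage identity covariate, with only the 2 groups compared and with antibody arms averaged, 2 with DESeq2, and 0 to 1 without single tumours (1 without untreated tumour 3); the share of all genes called was 2.41%, 6.19%, 13.7% and 8.62% in those settings and 1.63% to 7.85% without single tumours. For 20 Gy with anti-PD-1 in allografts it was 0 and became 1 with the Xist covariate, the identifier digit, averaged arms and DESeq2 (all genes 2.86%, 3.78%, 13.7% and 9.38%), and 0 to 2 without single tumours (1.02% to 7.05%; Il10 and Chil3 without unirradiated tumour 3, Il10 without irradiated tumour 1). The 1 call of the combination in allografts became 0 with the macrophage identity covariate (all genes 0.00564%), where Chil3 turned from 1.63 to -0.0534, and 0 with that covariate without Lyz2 and Mpeg1 (0%), where Chil3 was -0.0049. For 20 Gy with isotype in primary tumours 1 call became 2 with relative log expression size factors, the muscle, Xist and identifier covariates, all 48 tumours in 1 fit and only the 2 groups (all genes 13.1% to 18.3%), 3 with averaged arms (26.3%) and with DESeq2 (17.1%), and 1 to 2 without single tumours (9.52% to 17.3%; 2 without unirradiated tumours 4 or 5 or irradiated tumour 8); it stayed 1 with the macrophage identity covariate, with Trem2 called lower in place of Il10, and with that covariate without Lyz2 and Mpeg1, with Mrc1 called lower in its place. With anti-PD-1 the 1 call became 0 with only the 2 groups (4.94%) and with the covariate without Lyz2 and Mpeg1 (5.03%), stayed 1 with the macrophage identity covariate, with Trem2 called lower and Chil3 lost, became 3 with averaged arms (26.3%) and with DESeq2 (12.3%), and 0 to 1 without single tumours (5% to 10.7%). For the combination in primary tumours it was 3, which became 2 without the muscle-rich tumours (8.45%; Il10 lost) and with the covariate without Lyz2 and Mpeg1 (8.73%; Il10 lost), 4 with DESeq2 (18.6%; Retnla added) and 2 to 4 without single tumours (9.82% to 18%); with the macrophage identity covariate it was 3, with Trem2 called lower in place of Il10. For untreated primary tumours against allografts 2 calls became 1 without the filter, with the Xist covariate, with all 48 tumours and with the covariate without Lyz2 and Mpeg1 (4.65% to 10.3%), 5 with DESeq2 (16.5%), and 1 to 4 without single tumours (4.13% to 12.7%; 4 without primary tumour 5). For the tumour kind difference in response to dose with isotype 0 became 1 (Trem2) with the covariate without Lyz2 and Mpeg1 (0.0466%). The cause was not tested in any of these cases. Averaging the antibody arms makes a single dose test per tumour kind, listed here under both dose comparisons. No paired analysis was possible because the replicate numbers only follow the order of deposition. The levels of Il10 and Retnla rest on few reads.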
